A study of Mus musculus with 2 samples.

Results

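Isg15, Irf7, Ifitm3, Ifitm2, Bst2, Xaf1, Rtp4, Ifi27l2a and Usp18 are 9 interferon-stimulated genes outside the Ifit family, found by their symbols among the 55357 genes that both deposited count matrices list. They were followed in cerebral cortex cells that had been sorted as CD45+CD11b+ from mice aged 8 weeks. One library came from moesin (Msn) knockout mice, for which the series names C57BL/6, and 1 library came from wild-type mice. The cortices of 5 to 6 mice were pooled for each genotype, and single-cell libraries were made by the 10x Genomics 3′ v2 method. Neither the wild-type strain nor the animals' sex nor the deleted part of Msn is stated in the labels. With 1 library per genotype there is no replicate check, genotype and library cannot be told apart, and every interval below covers counting error only.

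Type I interferons bind the receptor subunits Ifnar1 and Ifnar2, and the kinases Jak1 and Tyk2 then activate transcription factors that, together with Irf9, bind a DNA element called the interferon-stimulated response element (ISRE). The genes switched on in this way block virus entry or release, tag proteins, amplify the response or stop it. In the brain, microglia and the macrophages of its borders can both respond to interferon, and a small interferon-responsive state of microglia is known from several mouse models.

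The promoters of these genes were searched for the letters of this element. RefSeq promoters on the build GRCm38.p6, running from 250 bases before to 50 bases after the annotated start, were found for 6 of the 9 genes (Isg15, Irf7, Ifitm3, Ifitm2, Bst2 and Xaf1). The ISRE core was searched on both strands as GAAA, any 2 bases and GAAA again, and stood in 4 of the 6, against 1122 of 32544 RefSeq promoters (3.45%). These 4 are shown 5′ to 3′ on the gene's strand, with the matches in capitals.
Isg15: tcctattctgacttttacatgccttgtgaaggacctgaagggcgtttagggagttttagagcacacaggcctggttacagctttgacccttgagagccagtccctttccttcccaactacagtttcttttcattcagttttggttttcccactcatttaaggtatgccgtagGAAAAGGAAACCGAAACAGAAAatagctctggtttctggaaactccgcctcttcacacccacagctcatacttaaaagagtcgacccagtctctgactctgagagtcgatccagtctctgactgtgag
Bst2: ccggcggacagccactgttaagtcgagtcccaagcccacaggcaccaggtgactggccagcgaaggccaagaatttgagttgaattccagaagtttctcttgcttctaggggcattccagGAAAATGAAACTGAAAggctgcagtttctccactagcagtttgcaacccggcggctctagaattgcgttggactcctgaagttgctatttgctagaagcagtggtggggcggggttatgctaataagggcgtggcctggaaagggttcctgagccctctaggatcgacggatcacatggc
Ifitm3: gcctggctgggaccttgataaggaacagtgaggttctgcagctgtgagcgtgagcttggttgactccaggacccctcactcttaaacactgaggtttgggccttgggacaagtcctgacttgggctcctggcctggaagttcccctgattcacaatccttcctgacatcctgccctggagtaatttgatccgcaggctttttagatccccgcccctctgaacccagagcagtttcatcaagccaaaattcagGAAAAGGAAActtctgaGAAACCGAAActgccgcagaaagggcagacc
Ifitm2: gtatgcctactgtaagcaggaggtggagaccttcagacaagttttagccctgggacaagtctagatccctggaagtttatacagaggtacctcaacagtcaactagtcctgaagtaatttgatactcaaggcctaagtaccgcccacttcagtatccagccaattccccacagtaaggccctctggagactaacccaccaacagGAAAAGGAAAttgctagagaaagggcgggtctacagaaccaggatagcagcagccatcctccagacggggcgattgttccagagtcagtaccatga
The Isg15 window (chr4:156200769-156201068, minus strand) held 3 overlapping matches, from 78 to 57 bases before the start. The Bst2 window (chr8:71537423-71537722, minus strand) held 2 overlapping matches, from 130 to 115 bases before the start. The Ifitm3 window (chr7:141010695-141010994, minus strand) held 2 separate matches, both just after the start, and the Ifitm2 window (chr7:140955912-140956211, minus strand) held 1 match, 46 to 37 bases before it. Windows that held 3 GAAA units in a row, each 2 bases apart (a pattern that contains 2 overlapping ISRE cores), were 37 of all promoters (0.114%), those of Isg15 and Bst2 among them. The letters TTCNNNGAA, those of the gamma-interferon activated site, stood in the windows of Ifitm3 and Bst2, and in 8.33% of all promoters. In Bst2 and Ifitm3 they shared bases with an ISRE core. The Irf7 and Xaf1 windows held neither of these letter patterns.

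The knockout library held 9038 barcodes and 67575835 unique molecular identifiers (UMIs, each standing for 1 captured RNA molecule), against 5842 barcodes and 68576464 UMIs in the wild-type library. Cells were placed in a class by at least 1 UMI of each of 2 genes, P2ry12 and Tmem119 for microglia, Ace and Treml4 for patrolling monocytes, Ly6c2 and Ccr2 for classical monocytes, Mrc1 and Pf4 for border macrophages, and Ncr1 and Nkg7 for natural killer (NK) cells. The microglia gate held 4666 of 7573 kept knockout cells (61.6%) and 5031 of 5577 kept wild-type cells (90.2%). The patrolling monocyte gate held 436 knockout and 28 wild-type cells, the classical monocyte gate 102 and 22, the border macrophage gate 109 and 27, and the NK gate 65 and 0 (0 of 5577 kept cells allows a share of up to 0.0661% by the exact interval). Cells that passed more than 1 gate, or another gate with microglial RNA, were left out as mixed (1068 knockout cells with a median of 15071 UMIs, and 240 wild-type cells with a median of 22939 UMIs). In the microglia gate, 9 other microglial markers, Csf1r and P2ry13 among them, summed to 17009 counts per 1000000 UMIs (CPM) in the knockout library and 16549 CPM in the wild-type library. Msn stood at 20.7 CPM in knockout and 321 CPM in wild-type microglia-gated cells, as the labels have it. The libraries shared 13 barcodes.

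All 9 genes were higher in knockout than in wild-type microglia-gated cells. A gene was called higher or lower at 1.5-fold or more relative to the median log2 ratio of all measured genes (those reaching 10 CPM in either library), since that median stood at -0.30 between the microglia gates. By this rule 15.3% of the 8724 measured genes were higher and 12.5% were lower, against 9 and 0 of the 9 interferon-stimulated genes. Their relative log2 ratios had a median of 1.39 and ran from 0.65 for Bst2 to 4.17 for Ifitm2, and all 9 counting intervals lay past 1.5-fold. The shares of all genes are for the ratios themselves. Shares by interval are not given for this or any other gate, so counts of intervals have no background. On the plain CPM scale 7 of the 9 were higher, against 4.75% of all genes higher and 30.5% lower. Bst2 (log2 ratio 0.36) and Xaf1 (0.55) were then inside the threshold. On either scale, Ifitm2 (3.34 CPM in wild-type cells) and Irf7 (9.30 CPM) counted as measured only through their knockout level. Such entry favours a higher call.

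The membrane proteins spanned the whole range. Ifitm3, which blocks the entry of viruses from endosomes, had 182 CPM in knockout cells (6797 UMIs) and 36.3 CPM in wild-type cells (2194 UMIs), a relative log2 ratio of 2.62 (95% interval 2.55 to 2.69). Its close relative Ifitm2 had 49.1 CPM in knockout cells and 3.34 CPM in wild-type cells, a relative log2 ratio of 4.17 (3.96 to 4.39). The Ifitm2 level in wild-type cells rested on 202 UMIs, and the knockout interval of 46.9 to 51.4 CPM lay far from the wild-type interval of 2.90 to 3.84 CPM. Bst2, or tetherin, which holds budding viruses on the cell surface, had 241 CPM in knockout cells and 188 CPM in wild-type cells, a relative log2 ratio of 0.65 (0.61 to 0.69). Ifi27l2a, a small membrane protein induced by interferon, had 141 CPM in knockout cells and 60.8 CPM in wild-type cells, a relative log2 ratio of 1.51 (1.45 to 1.58).

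Of the genes that tag proteins and stop the response, both were higher. Isg15 encodes a ubiquitin-like protein that is attached to other proteins or secreted. It had 54.3 CPM in knockout cells (2023 UMIs) and 25.4 CPM in wild-type cells (1537 UMIs), a relative log2 ratio of 1.39 (1.29 to 1.49). Usp18 removes Isg15 from its targets and also inhibits signalling at Ifnar2. It had 18.6 CPM in knockout cells and 11.3 CPM in wild-type cells, a relative log2 ratio of 1.02 (0.87 to 1.18).

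Irf7, the transcription factor that amplifies interferon production, had 24.1 CPM in knockout cells and 9.30 CPM in wild-type cells, a relative log2 ratio of 1.67 (1.52 to 1.83). Xaf1, which binds the apoptosis inhibitor Xiap, had 53.8 CPM in knockout cells and 36.7 CPM in wild-type cells (relative log2 ratio 0.85, 0.76 to 0.94). Rtp4, a receptor transporter protein induced by interferon, had 39.7 CPM in knockout cells and 25.0 CPM in wild-type cells (relative log2 ratio 0.96, 0.86 to 1.07). None of the 9 pairs of level intervals overlapped between the libraries in this gate. These intervals hold counting error only, and the share of all measured genes without overlap is not given, so this sets the 9 genes apart from no others.

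**Figure D1:**
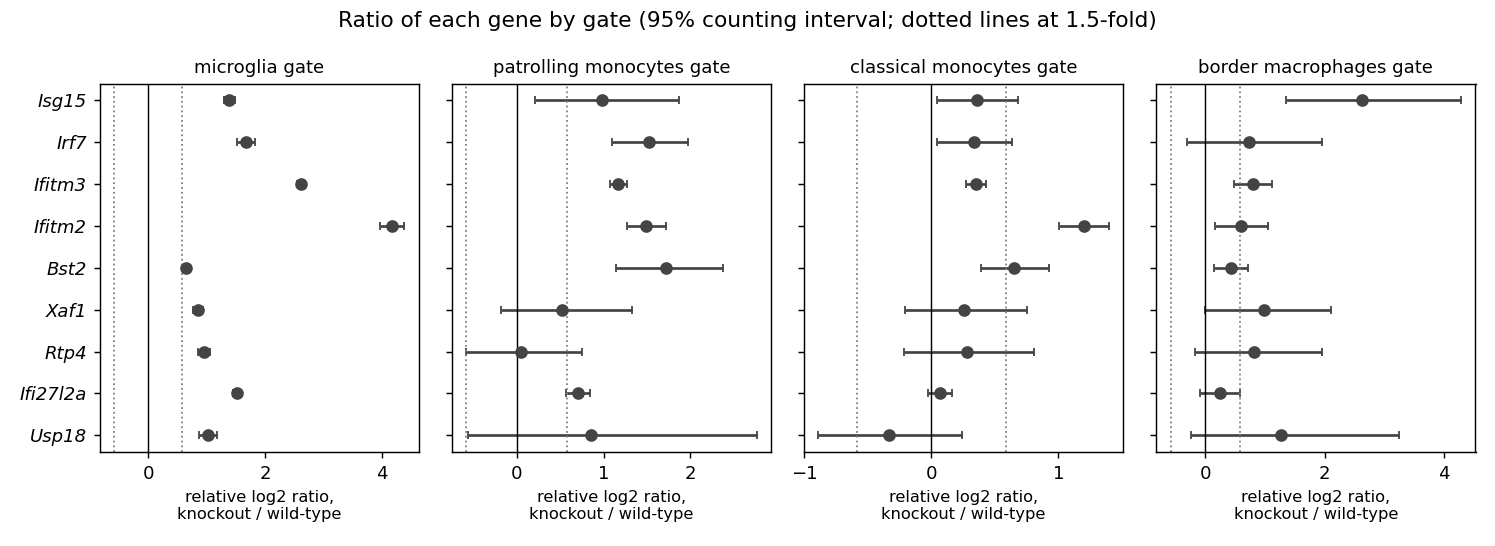
Relative log2 ratio of knockout over wild-type (x axis) for each of the 9 genes (rows) in the 4 gates with at least 20 cells in both libraries, with the 95% counting interval as bars, the solid line at the median of all genes and dotted lines at 1.5-fold. The x axes differ between gates. All 9 points lie right of the dotted line in the microglia gate, from 0.65 for Bst2 to 4.17 for Ifitm2, and 7 of 9 lie inside it in the classical monocyte gate.

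At equal depth, more knockout than wild-type cells carried each transcript. Each cell was thinned to 2000 UMIs, which left out 346 knockout and 136 wild-type microglia-gated cells with fewer. Ifitm3 was then detected in 16.9% of 4320 knockout cells and 5.29% of 4895 wild-type cells (unthinned 38.3% and 21.4%). For Ifitm2 the thinned shares were 5.23% of knockout cells and 0.409% of wild-type cells, and for Bst2 36.9% and 30.2% (unthinned 69.5% and 71.8%). Without thinning, the shares of Bst2 thus stood in the other order, at median depths of 5627 UMIs in the knockout and 7265 UMIs in the wild-type library. Isg15 was detected in 8.80% of thinned knockout cells and 5.15% of wild-type cells, Ifi27l2a in 16.5% and 9.32%, and Xaf1 in 10.3% and 7.15% (unthinned 29.06% and 29.02%). Rtp4 stood at 7.34% of thinned knockout cells and 4.54% of wild-type cells. Irf7 (4.01% in knockout and 1.57% in wild-type cells) and Usp18 (3.08% and 1.70%) were sparsely detected in both libraries.

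Detection of 4 genes of other cell types was read as a part of what free RNA or unseen mixtures bring into this gate. In thinned microglia-gated cells, Pf4 was detected in 4.51% of knockout and 0.572% of wild-type cells, Mrc1 in 2.22% and 4.00%, and Plac8 in 4.17% and 0.674%. Ace, of patrolling monocytes, was detected in 1.39% of knockout and 0.0817% of wild-type cells. The shares of Irf7 and Usp18 in both libraries, and of Ifitm2 in the wild-type library, lay at or under the highest of these, so their detection alone does not separate expression from background. Isg15, Ifitm3, Bst2, Xaf1, Rtp4 and Ifi27l2a lay above all 4 in both libraries. That does not separate their expression from background either, since the 4 genes are no upper bound for it. Erythroid markers summed to 670 CPM in the knockout microglia gate. In knockout patrolling monocytes Ifitm3 stood at 9526 CPM, against 2963 CPM for Plac8 and 591 CPM for Ace.

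Monocyte RNA moved with the genotype in this gate. The 8 classical monocyte markers, all detected in both libraries, summed to 64.5 CPM in knockout and 15.9 CPM in wild-type microglia-gated cells, and the 8 patrolling monocyte markers to 129 and 56.2 CPM. The 8 border macrophage markers summed to 65.6 CPM in knockout and 32.2 CPM in wild-type cells. The 8 NK markers summed to 23.1 CPM in knockout and 0.480 CPM in wild-type cells, with Ncr1, Nkg7, Gzmb and Klre1 at 0 in the wild-type library. Plac8, a gene of both monocyte gates, had 35.9 CPM in knockout and 4.15 CPM in wild-type microglia-gated cells. In classical monocytes it had 6209 CPM in the knockout and 6251 CPM in the wild-type library, and in patrolling monocytes 2963 and 2395 CPM. Erythroid markers summed to 670 CPM in knockout and 87.4 CPM in wild-type cells, neutrophil markers to 742 and 411 CPM, choroid plexus markers to 81.1 and 5.21 CPM, and the B cell, T cell and dendritic cell lists to 205 and 186, 1.56 and 0.116, and 7.91 and 9.28 CPM. Astrocyte markers (153 CPM in knockout and 195 CPM in wild-type cells), endothelial markers (22.4 and 28.3 CPM), oligodendrocyte markers (19.9 and 27.6 CPM) and neuronal markers (0.456 and 0.546 CPM) were lower in the knockout library. The part of these other cell types' RNA in the ratios was not tested. Leaving out cells with a UMI of monocyte or gate genes, as given below, does not test it. A cell without such a UMI can still hold other RNA of those cell types.

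In the knockout library the interferon-stimulated genes divided by how closely they followed Plac8. Cells with 3 or more Plac8 UMIs numbered 107 in the knockout microglia gate (4.90% of its UMIs) and 9 in the wild-type gate (0.237%). Those 107 knockout cells held 46.7% of the Ifitm2 UMIs, 40.9% of the Ifitm3 UMIs, 27.2% of the Ifi27l2a UMIs and 24.1% of the Irf7 UMIs of the gate. In knockout cells with 3 or more Plac8 UMIs, against those with none, Ifitm2 was 19.7-fold higher, Ifitm3 14.8-fold, Ifi27l2a 7.72-fold and Irf7 6.34-fold. Isg15 (2.32-fold), Usp18 (1.81-fold), Xaf1 (1.31-fold) and Rtp4 (1.26-fold) followed Plac8 less steeply. Bst2 was level, at 241 CPM in both bins (1.00-fold, 0.908 to 1.10). This division is that of the knockout library. The 9 wild-type cells had the steepest folds for Ifitm2 (62.9) and Ifitm3 (34.3) too, but Bst2 was 1.90-fold higher in them than in wild-type cells with no Plac8 UMI (1.41 to 2.49) and Xaf1 2.30-fold higher (1.18 to 4.02).

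All 9 genes were still higher in the knockout library among microglia-gated cells without a Plac8 UMI. Of all measured genes in such cells, 14.85% were higher and 12.3% lower. In these 4176 knockout and 4830 wild-type cells, Ifitm2 had 23.8 CPM in the knockout and 2.66 CPM in the wild-type library (relative log2 ratio 3.45), and Ifitm3 had 103 and 32.6 CPM (1.96). Ifi27l2a stood at a relative log2 ratio of 1.11, Irf7 at 1.36 and Isg15 at 1.29. Bst2 (0.65), Xaf1 (0.83), Rtp4 (0.93) and Usp18 (0.96) stood close to their values in the whole gate. Leaving out also every cell with a UMI of a gene of another gate kept 3165 knockout and 3705 wild-type cells and brought Ifitm2 to 2.98, Ifitm3 to 1.67, Irf7 to 1.07 and Ifi27l2a to 0.95. Bst2, the lowest, was then at 0.60 (0.54 to 0.65), and all 9 were past 1.5-fold relative to the median of all genes. Of all measured genes, 13.85% were higher and 12.1% lower by that rule. On the CPM scale 6 of the 9 were past 1.5-fold in these cells, against 4.17% of all genes higher and 29.1% lower. Bst2 (0.32), Xaf1 (0.52) and Usp18 (0.50) were then inside. These selections were chosen after seeing the data. In each of them, Ifitm2 and Irf7 reached 10 CPM in the knockout library only. The cells kept last were shallower, with medians of 5206 UMIs in the knockout and 6216 UMIs in the wild-type library. In the whole gate the medians were 5627 and 7265 UMIs. A cell without a UMI of these genes can still hold other monocyte RNA, whose part in the ratios was not tested.

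**Figure D2:**
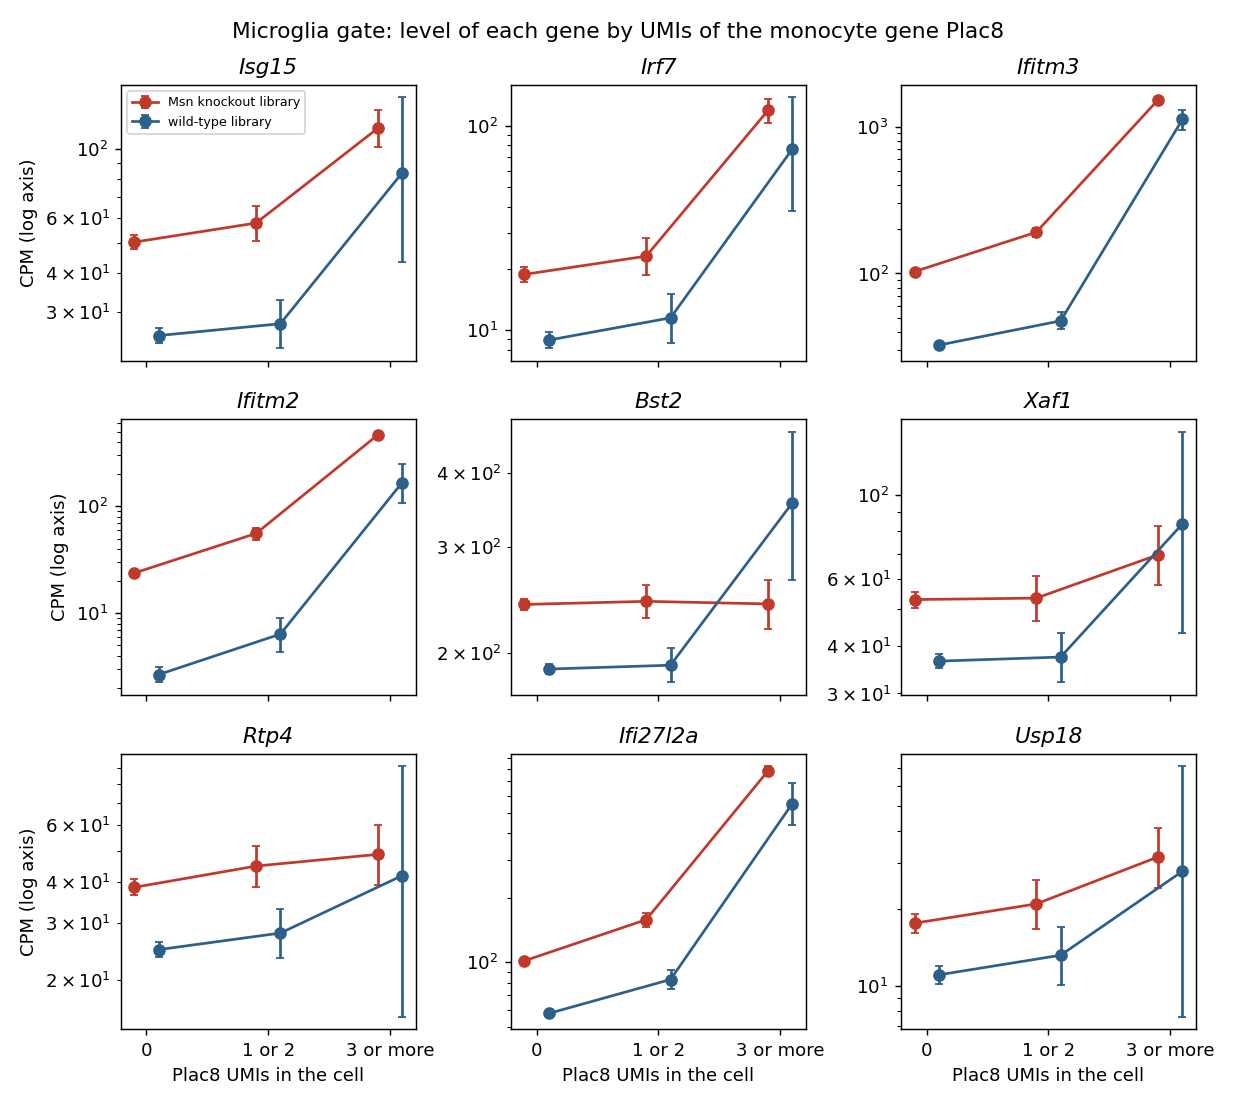
Level of each gene in the microglia gate (CPM, log axis) in cells with 0, with 1 or 2, and with 3 or more Plac8 UMIs (x axis), in the knockout library (red) and the wild-type library (blue), with exact 95% Poisson intervals. Ifitm2 and Ifitm3 climb 19.7-fold and 14.8-fold from the first to the last bin of the knockout library while Bst2 stays level there; the last wild-type bin holds 9 cells.

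The depth of the cells changed the ratio of Isg15 in 1 range. In cells with 2000 to 4000 UMIs, Isg15 had 51.9 CPM in 632 knockout cells and 59.4 CPM in 340 wild-type cells, a relative log2 ratio of 0.11 (-0.35 to 0.57). In the other 4 depth ranges its relative log2 ratio lay between 1.21 and 1.60. Bst2 was at 0.55 in cells with 4000 to 8000 UMIs, inside the threshold, and between 0.61 and 1.24 in the other ranges. Under 2000 UMIs, Xaf1 lay at -0.26 (-1.55 to 1.11), and Usp18, with 4 knockout and 2 wild-type UMIs, at 0.00 (-2.80 to 3.47). Ifitm3 and Ifitm2 were past 1.5-fold in all 5 ranges.

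A small group of microglia-gated cells carried Ifit transcripts, and several of the 9 genes stood at higher levels in it. Cells with at least 2 UMIs of Ifit1, Ifit2, Ifit3 and Ifit3b together, counted at 2000 UMIs per cell, were called Ifit-positive. They numbered 27 of 4320 knockout cells (0.625%, 95% interval 0.412 to 0.908) and 26 of 4895 wild-type cells (0.531%, 0.347 to 0.777), so the difference in share lay within counting error. Isg15 had 557 CPM in Ifit-positive and 50.1 CPM in other knockout cells (11.1-fold), and 405 CPM in Ifit-positive and 23.2 CPM in other wild-type cells (17.5-fold). Usp18 was 10.9-fold higher in Ifit-positive than in other knockout cells and 20.1-fold higher in the wild-type library, and Irf7 11.3-fold and 19.0-fold. Ifitm3 was 5.50-fold higher in Ifit-positive than in other knockout cells and 12.3-fold higher in the wild-type library. Still, the Ifit-positive cells held only 7.99% of the Isg15 UMIs in the knockout and 9.09% in the wild-type library. The highest such share among the 9 genes was 10.3%, for Usp18 in the wild-type library.

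The remaining genes had smaller folds between the Ifit-positive and the other cells. Rtp4 was 3.05-fold higher in Ifit-positive than in other knockout cells and 5.73-fold higher in the wild-type library, Xaf1 2.63-fold and 3.39-fold, and Bst2 2.42-fold and 2.86-fold. Ifi27l2a was 4.14-fold higher in Ifit-positive knockout cells and 2.81-fold higher in Ifit-positive wild-type cells. Ifitm2 had 193 CPM in Ifit-positive and 47.8 CPM in other knockout cells. The 26 Ifit-positive wild-type cells held no Ifitm2 UMI, and the other wild-type cells stood at 3.35 CPM. The interval of that share of cells runs from 0 to 13.2%, which includes the 0.411% of other wild-type cells with a UMI. Plac8 was at 80.6 CPM in Ifit-positive and 35.7 CPM in other knockout cells, and at 8.74 and 4.11 CPM in the same groups of the wild-type library, and its part in these folds was not tested.

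Within the Ifit-positive cells the libraries differed less for some genes than in the rest of the gate. There, the relative log2 ratio stood at 0.11 for Usp18 (-0.43 to 0.64), -0.01 for Rtp4 (-0.69 to 0.65) and 0.68 for Isg15 (0.34 to 1.02). In the other cells the same ratios were 1.07 (0.91 to 1.23), 0.97 (0.87 to 1.08) and 1.41 (1.31 to 1.51). Ifitm3 (1.42 in Ifit-positive and 2.66 in other cells) and Irf7 (0.87 and 1.70) were also lower among the Ifit-positive cells. So were Bst2 (0.34, 0.02 to 0.65, against 0.653, 0.613 to 0.694) and Xaf1 (0.415, -0.25 to 1.08, against 0.86, 0.77 to 0.95), with overlapping intervals. Ifi27l2a was at 1.97 in Ifit-positive and 1.49 in other cells. With 1 library per genotype these differences were not tested.

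**Figure D3:**
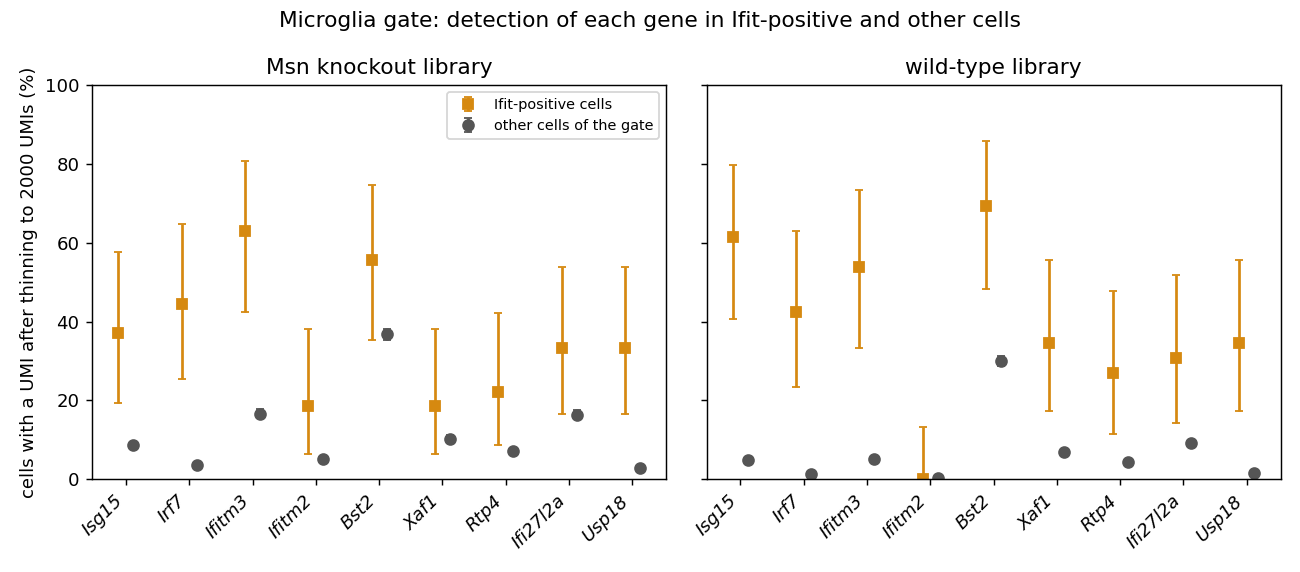
Percent of microglia-gated cells with a UMI of each gene after thinning to 2000 UMIs (y axis) in Ifit-positive cells (squares) and other cells (circles) of the knockout library (left, 27 Ifit-positive cells) and the wild-type library (right, 26), with exact 95% binomial intervals. Isg15, Irf7, Ifitm3 and Usp18 are detected far more often in Ifit-positive cells of both libraries. Ifitm2 is in none of the 26 wild-type ones (0 to 13.2%) and in 0.411% of other wild-type cells.

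Knockout cells had UMIs of more of the 9 genes per cell. This number rises with the share of cells that carry each gene, so by itself it does not measure joint expression. At 2000 UMIs per cell, 64.4% of knockout and 48.4% of wild-type microglia-gated cells had a UMI of at least 1 of them, and 10.5% and 2.96% had at least 3. At least 5 of the genes were found in 1.25% of knockout cells (0.940 to 1.63) and 0.327% of wild-type cells (0.187 to 0.530). Without Ifitm2, Ifitm3 and Ifi27l2a, which followed Plac8 most steeply together with Irf7, at least 2 of the other 6 were found in 13.9% of knockout and 6.93% of wild-type cells. The pair detected together most often beyond the product of its shares in the knockout library was Ifitm2 with Irf7, in 37 cells against a product of 9.05, and Ifitm2 with Ifitm3 was found in 119 cells against 38.1. In the wild-type library it was Irf7 with Usp18, in 7 cells against 1.31. These are descriptions of sparse counts.

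**Figure D4:**
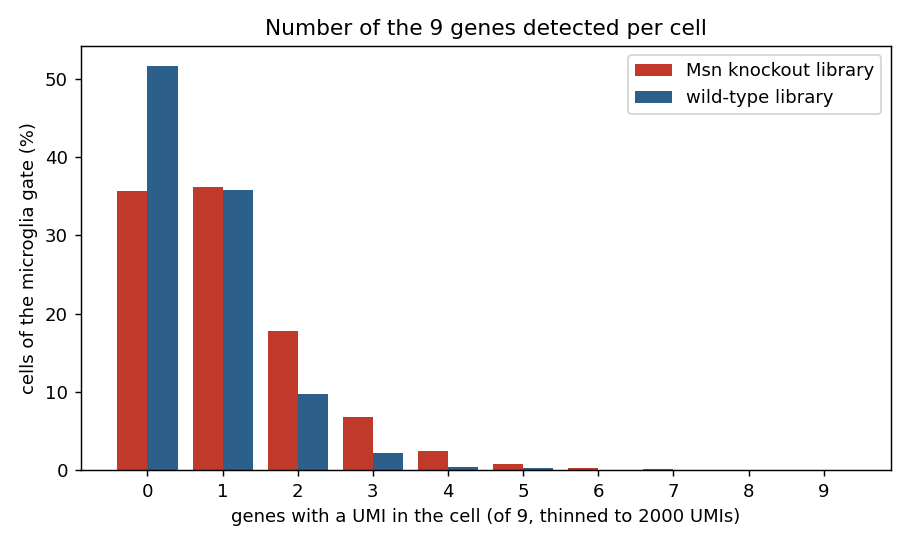
Percent of microglia-gated cells (y axis) by how many of the 9 genes had a UMI after thinning to 2000 UMIs (x axis), for 4320 knockout cells (red) and 4895 wild-type cells (blue). Cells with none make up 35.6% of the knockout and 51.6% of the wild-type gate, and cells with 2 or more are more frequent in the knockout library.

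How evenly the UMIs were spread over cells differed between the genes. The 1% of microglia-gated cells with most UMIs of a gene held 42.0% of the Ifitm2 UMIs in the knockout and 49.0% in the wild-type library. For Bst2 these cells held 8.89% in the knockout and 8.02% in the wild-type library, and for Xaf1 10.8% and 11.2%. Isg15 stood between, at 21.4% in the knockout and 22.8% in the wild-type library, and its highest knockout cell alone held 49 UMIs. For Ifi27l2a the same cells held 23.7% in the knockout and 16.6% in the wild-type library. These shares also depend on how many UMIs a gene has. In the wild-type library, Ifitm2 had 202 UMIs, in 3.06% of cells, and Bst2 had 11388 UMIs, in 71.8%. Sparse counts were thus not separated from uneven expression.

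In the patrolling monocyte gate, 7 of the 9 genes were higher in the knockout library, against 25.5% of measured genes higher and 26.9% lower, and none of the 9 was lower. Irf7 had 671 CPM in knockout and 295 CPM in wild-type cells (relative log2 ratio 1.52, 1.10 to 1.97). Ifitm2 had 2375 CPM in knockout and 1066 CPM in wild-type cells (1.49, 1.27 to 1.72), and Ifitm3 had 9526 and 5336 CPM (1.17, 1.07 to 1.27). These and Bst2, with 394 CPM in knockout and 151 CPM in wild-type cells (1.72, 1.14 to 2.37), were the 4 whose intervals lay past 1.5-fold. Isg15 (137 CPM in knockout and 87.8 CPM in wild-type cells) rested on 14 wild-type UMIs, and Usp18 (36.0 and 25.1 CPM) on 4. Ifi27l2a had 3563 CPM in knockout and 2753 CPM in wild-type cells (0.70). Xaf1 (0.52) and Rtp4 lay inside the threshold, Rtp4 at 0.05 relative to all genes and -0.28 on the CPM scale. The median of all genes was -0.33 here, and on the CPM scale 5 of the 9 were higher, against 16.2% of genes higher and 39.6% lower.

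In the classical monocyte gate the libraries were closer. Only Ifitm2 and Bst2 of the 9 were called higher, against 25.2% of measured genes higher and 26.8% lower, so the count was near the background. Ifitm2 had 2209 CPM in knockout and 1127 CPM in wild-type cells (1.20, 1.01 to 1.40), and Bst2 had 847 and 631 CPM (0.65, 0.39 to 0.93). Isg15 had 508 CPM in knockout and 464 CPM in wild-type cells (0.36), Irf7 580 and 538 CPM (0.34), and Ifitm3 8152 and 7462 CPM (0.36). Ifi27l2a had 4932 CPM in knockout and 5509 CPM in wild-type cells, 0.07 relative to all genes and -0.16 on the CPM scale. Xaf1 was at 218 CPM in knockout and 213 CPM in wild-type cells, and Rtp4 at 198 and 190 CPM. Usp18 had 116 CPM in knockout and 172 CPM in wild-type cells (-0.33, -0.89 to 0.25). On the CPM scale, from which the median of all genes differed by -0.23, only Ifitm2 passed 1.5-fold, against 17.5% of genes higher and 34.9% lower.

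In the border macrophage gate, 7 of the 9 genes were higher, against 30.0% of measured genes higher and 30.0% lower, and the wild-type levels rested on 4 to 128 UMIs. Isg15 had 205 CPM in 109 knockout cells and 38.4 CPM in 27 wild-type cells (5 UMIs), a relative log2 ratio of 2.63 (1.36 to 4.29), the only one whose interval lay past 1.5-fold. Ifitm3 had 1122 CPM in knockout and 752 CPM in wild-type cells (0.79, 0.48 to 1.12), and Ifitm2 had 526 and 407 CPM (0.59, 0.15 to 1.05). The intervals of Irf7 (0.74), Xaf1 (0.98), Rtp4 (0.82) and Usp18 (1.27) included 0. Bst2 (0.43, 0.15 to 0.72) and Ifi27l2a (0.24, -0.09 to 0.58) lay inside the threshold. The gated cells also differed in the genes of the gate itself, with Mrc1 at 1642 CPM in knockout and 3508 CPM in wild-type cells and Pf4 at 4956 and 2456 CPM, while the 8 border macrophage markers summed to 9853 and 9587 CPM. The part of this difference in the ratios was not tested. On the CPM scale, from which the median differed by -0.22, 4 of the 9 were higher, against 22.2% of genes higher and 37.4% lower.

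**Figure D5:**
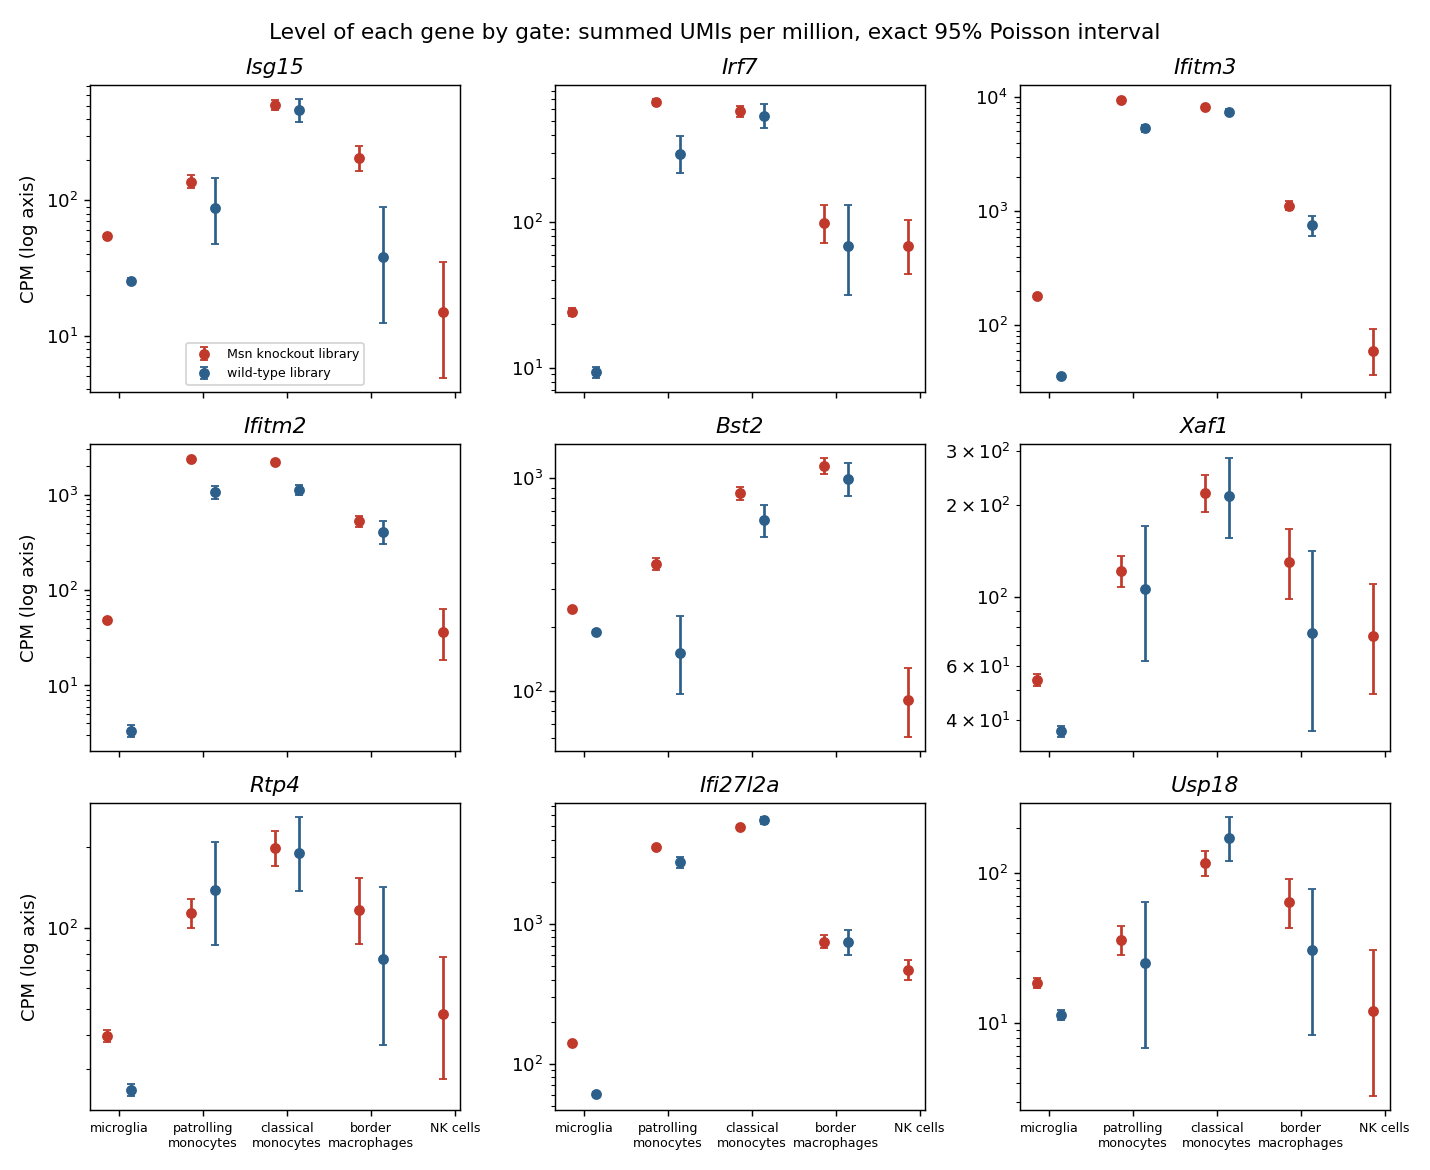
Level of each gene (CPM, log axis) in the 5 gates (x axis) of the knockout library (red, left of each pair) and the wild-type library (blue, right), with exact 95% Poisson intervals. Microglia lie under both monocyte gates for each gene, except for Bst2 in the wild-type library. There, microglia (188 CPM) stand above patrolling monocytes (151 CPM) with overlapping intervals. For Usp18 in the wild-type library, microglia (10.4 to 12.1 CPM) overlap patrolling monocytes (6.83 to 64.2 CPM) but not classical monocytes (120.8 to 236.5 CPM). The NK gate held 65 knockout and no wild-type cells.

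Within each library the monocyte gates stood above microglia for most of the genes. Ifitm3 in the knockout library was highest in patrolling monocytes (9526 CPM), then classical monocytes (8152 CPM), border macrophages (1122 CPM), microglia (182 CPM) and NK cells (60.1 CPM), with no overlap of neighbouring intervals. In the wild-type library Ifitm3 was highest in classical monocytes (7462 CPM), then patrolling monocytes (5336 CPM), border macrophages (752 CPM) and microglia (36.3 CPM). Irf7 and Ifitm2 likewise had patrolling monocytes first in the knockout and classical monocytes first in the wild-type library, where for Ifitm2 the intervals of the monocyte gates overlapped (1127 and 1066 CPM). Classical monocytes over microglia came to 9.36-fold for Isg15 in the knockout and 18.2-fold in the wild-type library, and to 34.9-fold and 90.6-fold for Ifi27l2a.

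Isg15, Ifi27l2a, Usp18, Xaf1 and Rtp4 were highest in classical monocytes in both libraries. For Xaf1, border macrophages (130 CPM) and patrolling monocytes (122 CPM) of the knockout library did not differ beyond counting error. In the wild-type library the level intervals of Xaf1 overlapped between neighbours in its order, though the ratio of classical over patrolling monocytes was 2.00-fold (1.13 to 3.72) and that of border macrophages over microglia 2.09-fold (1.002 to 3.86). For Rtp4 in the wild-type library, the first rank of classical monocytes (190 CPM) over patrolling monocytes (138 CPM) lay within counting error (1.38-fold, 0.802 to 2.43). The orders of Rtp4 and Usp18 below that also held pairs whose intervals overlapped. Bst2 was the exception among the 9, with its highest level in border macrophages, at 1138 CPM in the knockout and 982 CPM in the wild-type library. Bst2 in microglia was 4.72-fold lower than that in the knockout and 5.22-fold lower in the wild-type library. NK cells, present in the knockout library only, had the lowest level of Isg15 (15.0 CPM), Ifitm3, Ifitm2 (36.0 CPM, overlapping microglia), Bst2 (90.1 CPM) and Usp18 (4 UMIs, overlapping microglia), but not of Ifi27l2a (469 CPM against 141 CPM in knockout microglia) or Irf7 (69.1 against 24.1 CPM). For Xaf1 and Rtp4 the NK and microglia intervals of the knockout library overlapped.

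The genes were also read in the cells outside the gates. In mixed cells Ifitm3 had 1178 CPM in the knockout and 357 CPM in the wild-type library, and Isg15 had 84.8 and 39.0 CPM. In ungated cells Ifitm3 had 3257 CPM in the knockout and 474 CPM in the wild-type library, and Irf7 had 263 and 27.8 CPM. Usp18 in ungated cells, at 25.1 CPM in the knockout and 20.8 CPM in the wild-type library, did not differ beyond counting error.

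Most of the other interferon pathway genes lay inside the threshold in the microglia gate. Of 93 listed pathway genes, 61 were measured, and 11 were higher, 1 was lower and 49 lay inside the threshold, against the 15.3% of all genes higher and 12.5% lower. On the CPM scale the balance turned round, with 4 higher and 17 lower of the 61, against 4.75% of all genes higher and 30.5% lower. Of the genes higher on both scales, Oas1a, Ifitm1 and Ifitm6 reached 10 CPM in the knockout library only, and such entry favours a higher call. No ligand gene was measured. Of 4 receptor genes only Ifnar1, a subunit of the type I receptor, was called, and it was lower, with 27.7 CPM in knockout and 58.3 CPM in wild-type cells (relative log2 ratio -0.78, -0.88 to -0.68). Its partner Ifnar2 was the highest of the list at 0.21. None of the 9 kinases and transcription factors passed the threshold, from Irf8, a factor of the myeloid lineage, at -0.53 to Irf1 at 0.47, while on the CPM scale 3 of them (Irf8, Jak2 and Tyk2) were lower. Stat2 (-0.03) and Irf9 (-0.13), named after their values were seen, lay near the median of all genes.

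None of the 10 measured sensors and adaptors passed, from the DNA sensor Cgas at -0.49 to the RNA helicase Dhx58 at 0.47, while on the CPM scale 4 (Cgas, Ifih1, Tlr3 and Tbk1) were lower. Of the 4 genes that attach Isg15, the conjugating enzyme Ube2l6 was higher, with 16.7 CPM in knockout and 12.4 CPM in wild-type cells (0.73), and the ligase Herc6 was the lowest at -0.33. Of 4 inhibitors, Socs1, which blocks the Jak kinases, was higher, with 18.6 CPM in knockout and 11.8 CPM in wild-type cells (0.96), and Pias1 was the lowest at -0.38. Ifit3, the only measured Ifit gene, was higher, with 14.0 CPM in knockout and 10.2 CPM in wild-type cells (0.75). Of 25 other measured interferon-stimulated genes, 6 were higher and none lower, from the schlafen gene Slfn8 at -0.49 to the oligoadenylate synthetase Oas1a at 1.11. On the CPM scale 1 of the 25, Oas1a, was higher and 6 were lower, and neither Ube2l6 nor Ifit3 was past the threshold. Among the paralogues of the 9 genes, Ifitm1 had 12.2 CPM in knockout and 0.678 CPM in wild-type cells (4.47), and Ifitm6 had 11.7 and 1.92 CPM (2.91). Both counted as measured only through their knockout level. Ifitm10, the lowest of the 4 measured, lay at 0.32.

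In the patrolling monocyte gate 19 of 76 measured pathway genes were higher and 12 lower (16 and 21 by plain CPM), against 25.5% of all measured genes higher and 26.9% lower. In the classical monocyte gate 9 of 78 were higher and 19 lower (5 and 32 by plain CPM), against 25.2% and 26.8% of all genes. In the border macrophage gate 23 of 75 were higher and 19 lower (14 and 25 by plain CPM), against 30.0% of all genes in either direction. These percentages of all genes are relative to the median; the shares by plain CPM are those given above for each gate. The Ifit family had 4 measured members in border macrophages, all called higher (3 of them on the CPM scale) against 0 to 2 wild-type UMIs each, and 4 in classical monocytes, of which Ifit1 and Ifit2 were lower, named after their values were seen (-1.21 and -1.24).

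The genes most like each of the 9 were taken by Pearson's r of log2(CPM + 1) over the 9 sums of gate and library with at least 20 cells, among 10824 genes. These points share libraries, and r is given as a description. Xaf1 and Rtp4 were each other's nearest (r = 0.97), with Oas1a and Ifi211 also near Xaf1, and Ifi211 and Ifi27l2a near Rtp4. Irf7 was most like H2-T23 (0.99), Gm9843 and Ifi27l2a, and Ifi27l2a most like Irf7 (0.99), H2-T23 and Zbp1. Usp18 was most like Ifit3 (0.97), Isg15 and Niban2, and Isg15 most like Rnd3 (0.97), Ifit3 and Idh1. Ifitm3 was most like Oas1g (0.99), Plbd1 and Mgst1, Ifitm2 most like Atp6v1e1 (0.98), Ifitm3 and Golga7, and Bst2 most like Rgs18 (0.96), Ctsc and Serpinb8.

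In the GENCODE annotation of GRCm39, Ifitm2 (chr7:140534738-140536228), Ifitm3 (chr7:140589499-140591282) and Irf7 (chr7:140842619-140846398) lie on the minus strand of chromosome 7. Isg15 (chr4:156283883-156285303) and Bst2 (chr8:71986895-71990114) are on minus strands too, as is Ifi27l2a (chr12:103399975-103409950). Xaf1 (chr11:72192397-72204559), Rtp4 (chr16:23337811-23432972) and Usp18 (chr6:121222848-121247877) are on plus strands. Irf7 overlaps Phrf1 on the opposite strand, which had 28.1 CPM in knockout and 47.9 CPM in wild-type microglia-gated cells, and Ifi27l2a overlaps Ifi27 on the opposite strand, which had 190 and 168 CPM. Gm45717, which overlaps Ifitm2 on the same strand, had no UMI in the gate. The use of strand and the handling of reads shared by Ifitm paralogues are not stated for these counts, so the levels of Irf7, Ifi27l2a, Ifitm2 and Ifitm3 carry that uncertainty.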

How the data were processed

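Both deposited files are matrices of raw UMI counts, genes by barcodes, made by the authors with Cell Ranger (version 7.0.0 per the file headers, 6.0 per the labels' protocols) on GRCm39, per the labels' protocols. A filter at 500 genes per cell is named there, but the deposited counts include barcodes below it. Cells were kept from 500 genes upward and up to 10% mitochondrial UMIs. A cell passed a gate with at least 1 UMI of each of its 2 genes. P2ry12 and Tmem119 at 1 UMI each or less, and under the library's median microglial level divided by 5 (750 CPM in the knockout and 800 CPM in the wild-type library), did not count as microglial. Within 1.5-fold of that level lay 42 knockout and 30 wild-type microglia-gated cells. Doublets were not called, and cells of several gates were left out as mixed.

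UMIs were summed per gate and library and divided by the gate's total to give CPM. Intervals are 95% and exact (Poisson for levels, conditional binomial for ratios, Clopper-Pearson for shares), with the median of all genes taken as fixed. No p-value is given. Gates under 20 cells got no ratio. Alternatives covered the scale, cell filters, gates, depth and Ifit-positive cells. Named genes are the 9 genes, Msn, the highest and lowest of each pathway list, and for each of the 9 the 3 genes most like it. One microglial marker and 1 pathway gene of these lists are not reported here. The genes and lists were chosen with earlier results of these data known. Of the listed genes, 54749 (98.9%) matched GENCODE by identifier. Promoters came from RefSeq. The computation used Python 3.11.15, numpy 2.4.6, scipy 1.17.1 and pandas 2.3.3 and was tested on simulated data.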

Additional observations from a re-analysis of the deposited data

Results flagged for a closer look

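Usp18, which removes Isg15 from proteins, was the only one of the 9 genes whose ratio took opposite signs in different gates relative to the median of all genes. In the classical monocyte gate its relative log2 ratio was -0.33 (95% counting interval -0.89 to 0.25), with 107 UMIs in 102 knockout cells and 37 UMIs in 22 wild-type cells. In the microglia gate it was 1.02 (0.87 to 1.18), with 694 UMIs in knockout and 681 UMIs in wild-type cells. With 1 library per genotype the difference between the gates was not tested, and at 2000 UMIs per cell the classical monocyte value was 0.76.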

How the results depend on the processing

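The count of 9 genes higher in the microglia gate ranged from 6 to 9 over 17 alternatives, and the count lower was 0 in all 17. Over the same alternatives, 4.17% to 22.35% of all measured genes were higher and 7.38% to 30.5% lower. The count of the 9 genes higher was 7 on the CPM scale (Bst2 at 0.36 and Xaf1 at 0.55). It was 8 in cells with 4000 to 10000 UMIs (Bst2 at 0.56). It was 6 where the CPM scale was joined to leaving out cells with a UMI of Plac8 or of a gene of another gate, a pairing chosen after seeing the data. The 3 alternatives that left out cells by UMIs of Plac8, other gate genes or monocyte markers were also chosen after seeing the data. With the median of all genes kept as the base, they gave 9 each. The medians of the 9 genes were 1.11, 0.95 and 1.07, against 1.39. Irf7 in the border macrophage gate changed sign when cells were thinned to 2000 UMIs, at -0.26 against 0.74, and the cause was not tested. On the CPM scale patrolling monocytes lost the calls of Ifi27l2a (0.37) and Usp18 (0.52) and classical monocytes that of Bst2 (0.42), while thinning brought Irf7 (0.99) and Usp18 (0.76) past 1.5-fold in classical monocytes. Border macrophage calls that were lost were Irf7 (0.52), Ifitm3 (0.58) and Ifitm2 (0.37) on the CPM scale and Xaf1 (0.29) after thinning. With at least 3 Ifit UMIs in place of 2, 9 knockout and 14 wild-type cells were Ifit-positive, and Isg15 was 22.2-fold and 34.3-fold higher in them. Cell number limits the monocyte and border macrophage gates, whose wild-type cells number 22 to 28. No paired analysis was possible because each genotype has 1 library.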
